A study of Mus musculus with 12 samples.

Results

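The YAP/TAZ target genes examined here were Ccn1, Ccn2, Ankrd1, Amotl1, Amotl2, Ajuba, Axl, Crim1, F3 and Nuak2. They were taken as a named list, by the rule that a probe set had to carry exactly 1 gene symbol and that the brighter one stood for a gene with several. All 10 were measured, out of 22180 genes on the array. Livers of male mice were profiled on 12 arrays, 3 in each of 4 groups. The groups were wild-type mice on normal chow without cholesterol, Lats2-CKO mice on the same chow, wild-type mice on a Paigen diet, high in cholesterol at 1.25%, and Lats2-CKO mice on that diet. Mice were 8 weeks old at the start, and the diets lasted 9 weeks. The labels call the mutant mice both Lats2-CKO and Lats2-KO, and do not give the Cre driver, the deleted exons or the strain. The arrays of a group are labelled as biological replicates. Whether each stands for 1 mouse or for pooled mice is not given in the sources used here.

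The Hippo pathway is a kinase cascade in which MST kinases activate LATS1 and LATS2, and these phosphorylate the coactivators YAP and TAZ, which keeps them in the cytoplasm. When the cascade is off, YAP and TAZ enter the nucleus, bind TEAD factors and switch on genes of growth, adhesion and matrix signalling. In the liver the pathway is known for its control of organ size and of the hepatocyte and bile duct cell fates. Since LATS kinases restrain YAP and TAZ, the design allows the question of whether these targets differ between Lats2-CKO and wild-type livers, and whether the diet moves them.

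TEAD factors bind the motif CATTCC, which reads GGAATG on the other strand. Promoter windows of 300 bases (250 before and 50 after the start of 1 RefSeq transcript, GRCm38.p6) were found for 8 of the 10 genes, and 6 of the 8 held the motif on either strand. Of all 32851 windows of this length, 14.7% held it. For Ccn1, Ankrd1, Ajuba and F3 that start was the outer end of the annotated gene. For the 4 others it lay inside the gene, by 15 bases for Crim1, 191 for Axl, 713 for Amotl2 and 47974 for Amotl1, so the Amotl1 window in particular is not at the gene's outer start. The genes were listed as YAP/TAZ targets to begin with, so this count describes them and tests nothing. The bases upstream of Ccn1 are shown because the widest differences between the groups were those of this gene. They lie at chr3:145649986-145650235 on the minus strand of GRCm38.p6, with the single CATTCC in capitals.

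Ccn1: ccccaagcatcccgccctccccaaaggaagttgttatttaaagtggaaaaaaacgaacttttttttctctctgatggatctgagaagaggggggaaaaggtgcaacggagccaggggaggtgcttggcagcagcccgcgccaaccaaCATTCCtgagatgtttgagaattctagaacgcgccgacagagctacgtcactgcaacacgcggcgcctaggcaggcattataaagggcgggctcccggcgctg

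The other matches are shown with their neighbouring bases to let their contexts be compared. Each is read 5′ to 3′ on the gene's strand, with the motif in capitals, and 2 genes had 2 matches each.

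Amotl2 (chr9:102717729-102717754, plus strand): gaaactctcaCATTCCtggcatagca
Ajuba, first (chr14:54577832-54577857, minus strand): ttgatggataCATTCCacagtgcccc
Ajuba, second (chr14:54577810-54577835, minus strand): cccctccgcgCATTCCaactgtaaac
Ankrd1, first (chr19:36120039-36120064, minus strand): cactgccaaaGGAATGaccctctcac
Ankrd1, second (chr19:36119952-36119977, minus strand): cactaagtctGGAATGaaaattcacc
Axl (chr7:25788951-25788976, minus strand): aaattctacaGGAATGtttaccagac
Crim1 (chr17:78200159-78200184, plus strand): ggcgggggggGGAATGaggtaggatg

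Ccn1, Amotl2 and Ajuba held the motif in the direction of the gene, and Ankrd1, Axl and Crim1 held it on the opposite strand. Counted from the start used for its window, the match of Ccn1 began at position -103 and that of Amotl2 at -65. Counted from the outer start of the gene, the Amotl2 match began 648 bases downstream. The window of F3 and the internal window of Amotl1 did not contain these letters.

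**Figure D1:**
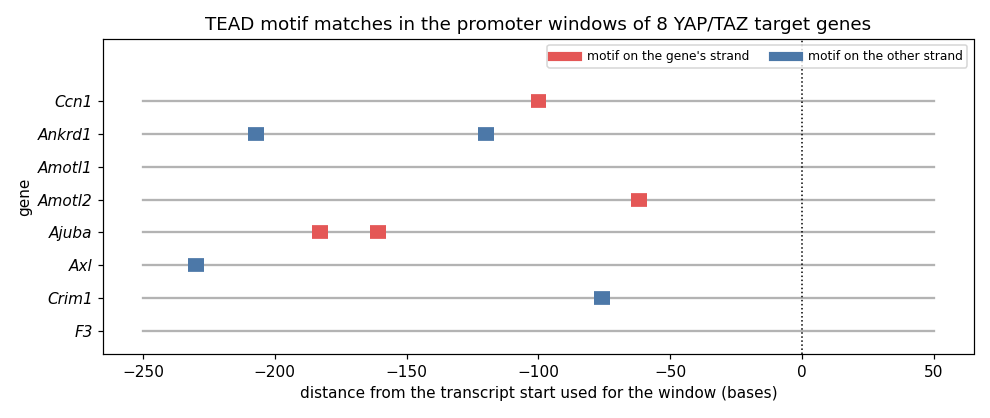
Positions of the TEAD motif in the promoter windows of 8 YAP/TAZ target genes; the horizontal axis is the distance from the transcript start used for the window in bases, grey lines are the windows, and the colour of a block gives the strand. All 8 matches lie upstream of that start, which for Amotl1, Amotl2, Axl and Crim1 is inside the annotated gene, and the windows of Amotl1 and F3 hold none.

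Values are log2 expression per probe set, so a difference of 1 is 2-fold. Group means are given with SD (n = 3) and differences with the standard error of the fit. Over all probe sets the arrays fell into 2 sets of 6, with medians of 3.48 to 3.49 and of 3.42 to 3.43. Each set held as many wild-type as Lats2-CKO arrays, but the diets were not balanced. In each genotype the first set held 1 high-cholesterol and 2 normal-diet arrays, and the second set 2 and 1. Diet differences are thus partly mixed with the array set. Those within the sets are given below, first set first, for Ccn1, Ccn2, Amotl1, Axl, F3 and Nuak2. They rest on these few arrays. Diet differences of other genes are given without them. No 2 arrays were identical, and correlations between arrays ran from 0.967 to 0.995. The third wild-type normal-diet array correlated at 0.993 with a Lats2-CKO high-cholesterol array and at 0.980 to 0.982 with its own group, so the main values that use it are also given without it. Replicate 3 of the wild-type high-cholesterol arrays likewise correlated best with a Lats2-CKO array (0.995, against 0.985 to 0.986 with its own group). The best match also lay outside the own group for replicates 1 and 2 of that group, and for some Lats2-CKO arrays. These were replicate 1 on normal diet and replicates 1 and 3 with high cholesterol. The arrays thus did not all sort by group in these correlations. Lats2 was below all 6 wild-type values on all 6 Lats2-CKO arrays, with a difference of -0.72 ± 0.16 over both diets (limma adjusted p = 0.486). The hepatocyte markers Alb and Ttr were at 13.15 to 13.37 and at 12.78 to 13.18 over the 12 arrays, as liver tissue has them.

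None of the 10 target genes passed the threshold in any comparison, and the widest difference was that of Ccn1 between the genotypes on normal diet. The test was limma with Benjamini-Hochberg adjustment over all genes at 0.05. The share of all genes past it was 0.00451% for genotype over both diets, 0.0135% for genotype on normal diet, 0% for genotype on the high-cholesterol diet, 0% for diet in wild-type mice, 0.271% for diet in Lats2-CKO mice and 0.00451% for the interaction. At such rates a count of 0 among 10 members is at the background. The comparisons share arrays with each other, so their values are given side by side and are not independent.

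By the looser mark of an unadjusted p below 0.05, 2 of 10 members (Ccn1 and Ccn2, both lower) stood out for genotype over both diets, where 5.97% of all genes did. On normal diet 1 of 10 did (Ccn1, lower; background 8.99%), and on the high-cholesterol diet 1 of 10 (Ccn2, lower; background 2.93%). For diet in wild-type mice it was 1 of 10 (Amotl1, lower; background 10.6%), for diet in Lats2-CKO mice 1 of 10 (Axl, higher; background 13.4%), and for the interaction 1 of 10 (Ccn1; background 5.62%). A count of 1 in 10 is near each of these shares.

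The members as a group were described by the median of their differences. Their median difference between genotypes was -0.13 over both diets, with 8 of 10 lower in Lats2-CKO, against a median of 0.0018 over all genes, of which 49.3% were lower. It ran from -0.20 to -0.034 over the alternatives tried. On normal diet it was -0.09 (6 of 10 lower) and on the high-cholesterol diet -0.13 (7 of 10 lower), with ranges of -0.16 to -0.056 and of -0.25 to -0.053. The median diet difference was 0.11 in wild-type mice (-0.026 to 0.21 over the alternatives, so its sign was not stable) and 0.11 in Lats2-CKO mice (0.019 to 0.18). In each, 6 of 10 members were higher, against 44.8% and 46.4% of all genes. The SD of the members' median between replicate arrays was 0.099, which is a spread of single arrays and not the error of these differences.

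**Figure D2:**
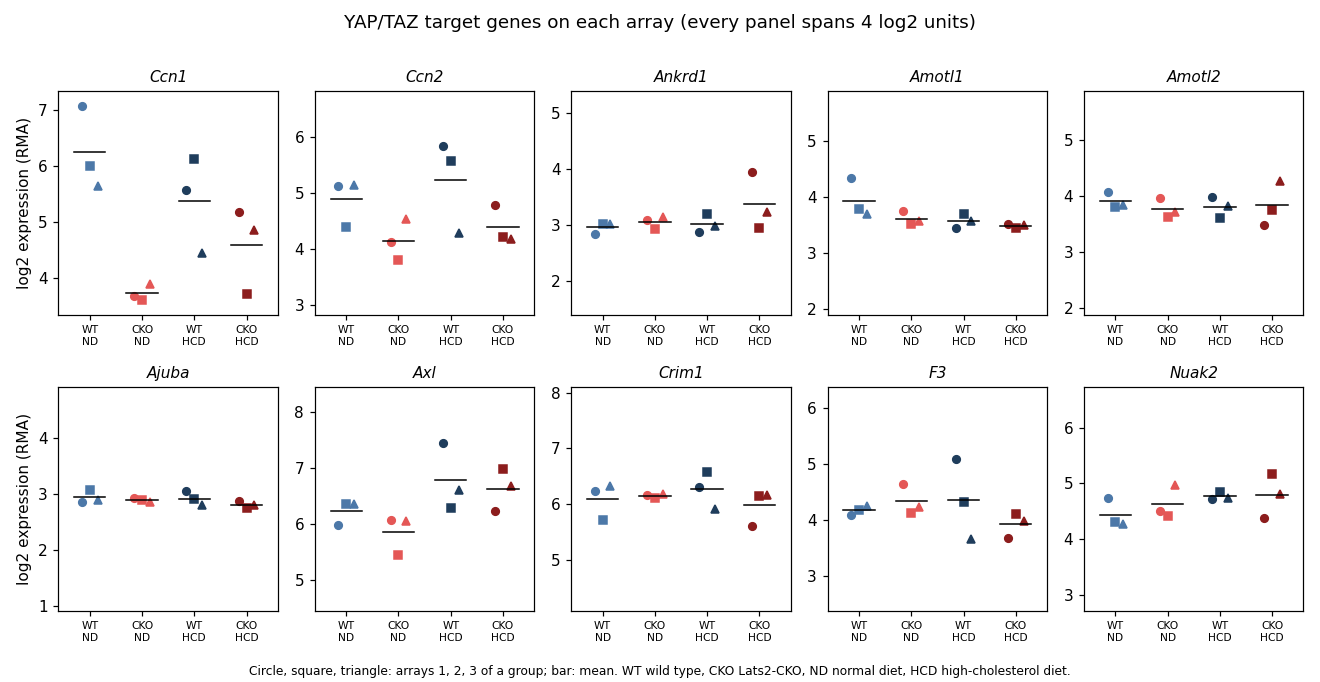
Log2 expression of the 10 genes on each of the 12 arrays, by group; the vertical axis spans the same number of log2 units in every panel, points are arrays and bars are group means. Ccn1 reads 3.59 to 3.89 on the 3 Lats2-CKO normal-diet arrays, below the 5.64 to 7.07 of the wild-type normal-diet arrays, while most other panels overlap.

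Ccn1 and Ccn2 encode secreted matricellular proteins that bind integrins, and both are the targets most often read as signs of YAP and TAZ activity. On normal diet Ccn1 read 7.07, 6.0 and 5.64 in wild-type livers and 3.67, 3.59 and 3.89 in Lats2-CKO livers. The groups did not overlap, and the lowest wild-type liver was above the highest Lats2-CKO liver. The difference was -2.52 ± 0.49 on the log2 scale, or 5.73-fold lower in Lats2-CKO (95% interval 2.73 to 12), with a limma adjusted p of 0.154. By its p this was number 44 of 22180 genes, and the p stayed above the threshold over the 22 alternatives tried, at 0.118 to 0.395. It was -2.90 within the array set of the higher medians (2 arrays against 2) and -1.75 within the other (1 against 1), and -2.82 without the third wild-type normal-diet array.

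On the high-cholesterol diet Ccn1 read 5.56, 6.12 and 4.44 in wild-type livers and 5.17, 3.71 and 4.86 in Lats2-CKO livers. These groups overlapped, and the difference was -0.80 ± 0.49 (95% interval -1.87 to 0.27). It was -1.26 without the third wild-type array, -0.42 without the second and -0.36 without the second Lats2-CKO array. Within the array sets it was -0.39 (1 against 1) and -1.0 (2 against 2). Over both diets the difference was -1.66 ± 0.34, or 3.15-fold lower (95% interval 1.87 to 5.33; limma adjusted p = 0.460), and -1.65 and -1.37 within the array sets. It was -1.81 without the third wild-type normal-diet array. Without the third wild-type high-cholesterol array it was -1.89 with a limma adjusted p of 0.065, the lowest of the 22 alternatives, and the highest was 0.839.

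The diet difference of Ccn1 was -0.86 ± 0.49 in wild-type livers and 0.86 ± 0.49 in Lats2-CKO livers. Both sizes rested on single arrays. In wild type the difference was -0.44 without the first normal-diet array, -1.16 without the third and -0.39 without the third high-cholesterol array, and in Lats2-CKO it was 0.57 and 1.30 without the first and the second high-cholesterol array. Neither interval left out 0 (-1.93 to 0.21 and -0.21 to 1.93). Within the array sets these were -0.97 and -0.36 in wild type, and 1.54 and 0.39 in Lats2-CKO. The difference between them, the interaction, was 1.72 ± 0.69 (95% interval 0.21 to 3.24; limma adjusted p = 0.832). It was 2.02 without the third wild-type normal-diet array and 1.26 without the third wild-type high-cholesterol array. In order of mean level the groups were wild type on normal diet (6.24 ± 0.75), wild type on the high-cholesterol diet (5.38 ± 0.86), Lats2-CKO on the high-cholesterol diet (4.58 ± 0.77) and Lats2-CKO on normal diet (3.72 ± 0.15). No neighbours in this order had an interval of their difference that left out 0. The spread was smallest in the last group, and the second Lats2-CKO high-cholesterol array (3.71) lay among its values.

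Ccn2 read 5.13, 4.40 and 5.15 in wild-type and 4.12, 3.81 and 4.53 in Lats2-CKO livers on normal diet. A single Lats2-CKO liver was above the lowest wild-type liver, so the groups overlapped. The difference was -0.74 ± 0.38 (95% interval -1.56 to 0.09; limma adjusted p = 0.613), and -0.61 without the third wild-type array. On the high-cholesterol diet it read 5.84, 5.58 and 4.29 in wild-type and 4.79, 4.22 and 4.19 in Lats2-CKO livers. The third wild-type array lay within the range of the Lats2-CKO arrays there, as it also did for Ccn1. The difference was -0.84 ± 0.38 on that diet and -0.79 ± 0.27 over both diets, or 1.72-fold lower (95% interval 1.15 to 2.59; limma adjusted p = 0.759). The array sets gave -0.92 and -0.67 over both diets, and without the third wild-type normal-diet array it was -0.72. On the high-cholesterol diet it was -1.31 without the third wild-type array and -0.53 without the first. Diet differences of Ccn2 were 0.34 ± 0.38 in wild-type and 0.25 ± 0.38 in Lats2-CKO livers. Without the first high-cholesterol array of each genotype they were 0.041 and 0.051. The array sets gave them opposite signs, 1.08 and -0.22 in wild type and 0.83 and -0.33 in Lats2-CKO.

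A dimmer probe set of Ccn2 gave another picture. It read 2.68 to 3.30 over the 12 arrays, with a mean of 2.96 against 4.67 for the one used, and its genotype difference over both diets was 0.04 ± 0.11. That mean was below 3.04, the 30th percentile of gene means, which served as the mark of dim genes. The values of Ccn2 above thus rest on 1 of its 2 probe sets. With the mean of both, its genotype difference was -0.37 over both diets, -0.38 on normal diet and -0.37 with high cholesterol.

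Ankrd1 encodes an ankyrin repeat protein of the nucleus and sarcomere that YAP and TEAD switch on in many cell types. It was near the dim mark, at 2.83 to 3.95, with a mean of 3.10. The first Lats2-CKO high-cholesterol array stood at 3.95, and the 11 others were between 2.83 and 3.23. The genotype difference was 0.10 ± 0.21 on normal diet and 0.36 ± 0.21 with high cholesterol (limma adjusted p = 0.950 and 1.0). The latter was 0.078 without that array.

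Amotl1, Amotl2 and Ajuba encode proteins at cell junctions that bind YAP or LATS kinases, so that they are both targets and regulators of the pathway. Amotl1 read 4.34, 3.78 and 3.69 in wild-type and 3.75, 3.53 and 3.57 in Lats2-CKO livers on normal diet. It read 3.46, 3.70 and 3.56 in wild-type and 3.51, 3.45 and 3.51 in Lats2-CKO livers on the high-cholesterol diet. The first wild-type normal-diet array was the highest of all 12. The diet difference of Amotl1 was -0.37 ± 0.15 in wild-type livers (95% interval -0.70 to -0.03; limma adjusted p = 0.443), -0.61 and -0.06 within the array sets. It was -0.16 without the first wild-type normal-diet array and -0.49 without the third. The diet difference was -0.13 ± 0.15 in Lats2-CKO livers, where all 3 high-cholesterol values lay below all 3 normal-diet values. The nearest of these values were 3.51 and 3.53. Within the array sets this difference was -0.13 and -0.10. Genotype differences of Amotl1 were -0.32 ± 0.15 on normal diet and -0.09 ± 0.15 with high cholesterol, and the former was -0.12 without the first wild-type array and -0.45 without the third.

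Amotl2 lay between 3.48 and 4.27 and Ajuba between 2.75 and 3.07. For Amotl2 the genotype difference was -0.14 ± 0.19 on normal diet and 0.03 ± 0.19 with high cholesterol, and its groups overlapped in every comparison. Ajuba had a mean of 2.89, below the dim mark, as the only member to do so. Its differences were all within 0.11 of 0, which at such a level says little about the gene.

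Axl encodes a receptor tyrosine kinase of the TAM family, which takes part in the clearance of dying cells. It read 5.97, 6.37 and 6.35 in wild-type livers on normal diet, against 7.46, 6.29 and 6.61 with high cholesterol. In Lats2-CKO livers it read 6.06, 5.44 and 6.06 on normal diet, against 6.22, 6.99 and 6.68 with high cholesterol. In the mutant livers every high-cholesterol value lay above every normal-diet value, while in wild-type livers the second high-cholesterol array lay within the normal-diet range. The diet difference was 0.78 ± 0.30 in Lats2-CKO livers, or 1.71-fold higher (95% interval 1.09 to 2.70; limma adjusted p = 0.283), and 0.47 and 0.78 within the array sets. In wild-type livers it was 0.55 ± 0.30 (95% interval -0.10 to 1.21; limma adjusted p = 0.546), and 1.29 and 0.10 within the array sets. It was 0.61 without the third wild-type normal-diet array and 0.22 without the first wild-type high-cholesterol array. Genotype differences were -0.37 ± 0.30 and -0.15 ± 0.30 on the 2 diets, and over both diets the array sets gave -0.82 and 0.05. On normal diet it was -0.31 without the third wild-type array and -0.17 without the second Lats2-CKO array.

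Crim1, a transmembrane protein that binds bone morphogenetic proteins, read 5.62 to 6.58 over the 12 arrays. Its group means were 6.10 ± 0.33 and 6.16 ± 0.04 in wild-type and Lats2-CKO livers on normal diet. With high cholesterol they were 6.27 ± 0.33 and 5.98 ± 0.32. The 4 groups overlapped.

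F3 encodes tissue factor, the cell surface starter of blood clotting. It read 4.08, 4.18 and 4.24 in wild-type and 4.64, 4.12 and 4.23 in Lats2-CKO livers on normal diet. On the high-cholesterol diet it read 5.09, 4.32 and 3.66 in wild-type and 3.67, 4.11 and 3.99 in Lats2-CKO livers. In the mutant livers the high-cholesterol values lay below the normal-diet values without overlap, though the nearest values were 4.11 and 4.12. The difference was -0.41 ± 0.29 (95% interval -1.04 to 0.23), and -0.25 without the first Lats2-CKO normal-diet array. Within the array sets it was -0.71 and -0.18. In wild-type livers the diet difference was 0.19 ± 0.29, and the array sets gave it opposite signs, 0.96 and -0.25. The SD in wild-type livers grew from 0.080 on normal diet to 0.72 on the high-cholesterol diet.

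Nuak2, a kinase of the AMPK family that acts on the actin cytoskeleton, lay between 4.28 and 5.18. Its genotype difference was 0.20 ± 0.21 on normal diet and 0.015 ± 0.21 with high cholesterol. Its diet difference was 0.33 ± 0.21 in wild-type and 0.15 ± 0.21 in Lats2-CKO livers (limma adjusted p = 0.612 and 0.812). Within the array sets it was 0.20 and 0.52 in wild type, and -0.08 and 0.016 in Lats2-CKO.

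Groups did not overlap for 1 of 10 members for genotype on normal diet (Ccn1), where 13.3% of all genes had such groups, and for 0 of 10 on the high-cholesterol diet, where 7.44% did. For genotype over both diets, with 6 arrays against 6, it was 0 of 10 against 0.23% of all genes. For diet it was 0 of 10 in wild-type mice (background 13.8%) and 3 of 10 in Lats2-CKO mice (Axl higher, F3 and Amotl1 lower; background 19.5%). On normal diet the 8 members other than Ccn1 and Ccn2 had 95% intervals between -1.03 and 0.80. These 8 include Ajuba, below the dim mark, and Ankrd1, near it, where an interval says little about the gene. The intervals are for single genes and not adjusted, so they set no limit for the members together.

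**Figure D3:**
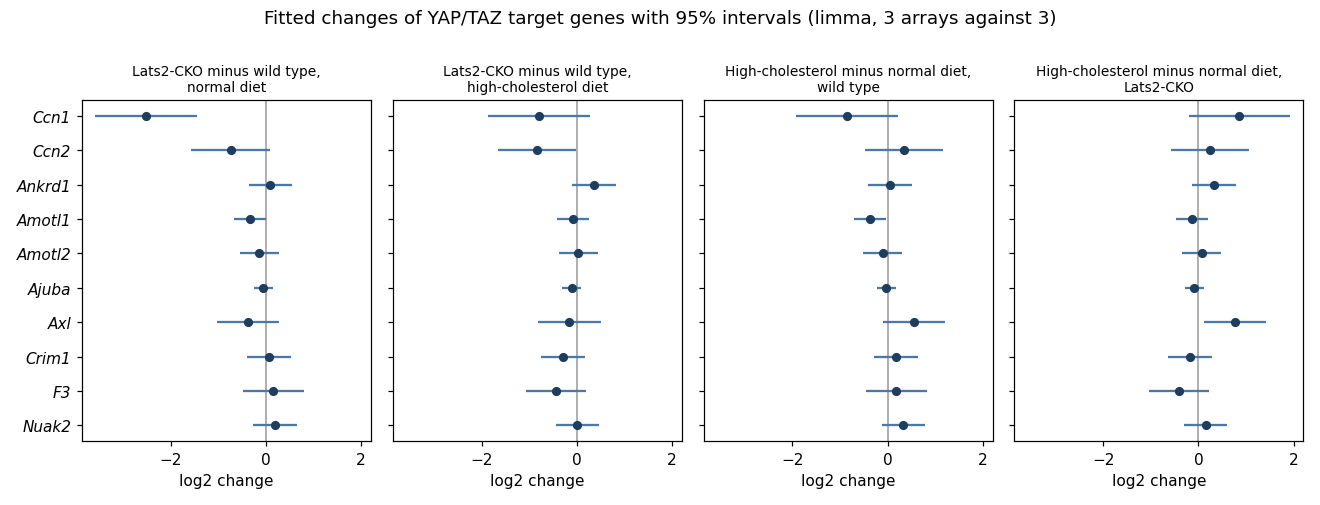
Fitted log2 differences of the 10 genes in 4 comparisons; points are differences and lines are 95% intervals from limma, 3 arrays against 3, and the grey line marks 0. The interval of Ccn1 for genotype on normal diet (-3.59 to -1.45) lies farthest from 0.

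The members did not share 1 pattern. Over the 45 pairs of members the correlation across the 12 arrays had a median of 0.11 and ran from -0.53 (Ajuba and Nuak2) to 0.71 (Ccn1 and Ccn2), and 4 pairs were above 0.5. For Ccn1 and Ccn2 Spearman's rho was 0.78, and r was 0.63 after each group's mean was taken off, so that the pair also varied together within groups. This was not particular to the pair, since r within groups was 0.73 for Axl and F3, 0.60 for Ccn1 and Amotl1 and 0.59 for Ajuba and F3. Across the 12 arrays Ccn1 and Amotl1 had an r of 0.64 (rho = 0.46), Ajuba and F3 0.62, and Crim1 and F3 0.54. Ajuba, in the lowest pair and in the pair with F3, lay below the dim mark, so its correlations say little about the gene. The arrays share their normalisation and the groups, and the values describe these 12 arrays.

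Outside the list, the genes most like Ccn1 over the 12 arrays, among 15525 that were not dim, were Cyp4b1 (a cytochrome P450; r = 0.93, rho = 0.94), Cuedc2 (r = 0.91, rho = 0.88) and Plxnd1 (a semaphorin receptor of endothelial cells; r = 0.88, rho = 0.86). Cyp4b1 read 6.6 to 7.09 in wild-type and 4.90 to 5.48 in Lats2-CKO livers on normal diet. Those most like Ccn2 were Dcn (decorin, a matrix proteoglycan; r = 0.89, rho = 0.93), an immunoglobulin kappa variable segment (r = 0.88, rho = 0.75), whose signal near-identical copies may share, and Stard8 (r = 0.88, rho = 0.89). For Axl they were Zfp984 (r = 0.934, rho = 0.90), H2-Ab1 (an MHC class II chain; r = 0.934, rho = 0.92) and Ywhah (r = 0.93, rho = 0.86). H2-Ab1 read 6.42 to 6.74 in Lats2-CKO livers on normal diet and 8.35 to 9.61 on the high-cholesterol diet.

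**Figure D4:**
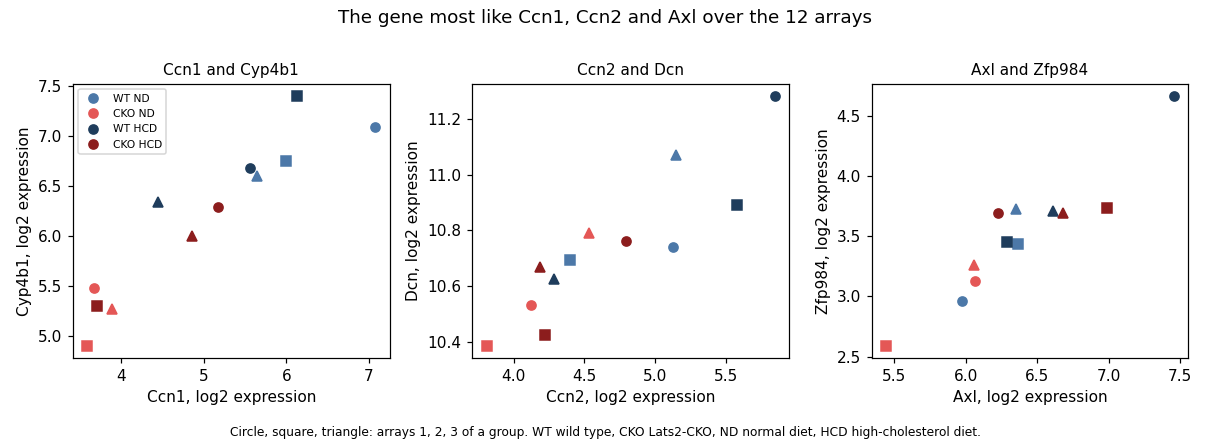
Log2 expression of Ccn1, Ccn2 and Axl (horizontal axes) against that of the gene most like each (vertical axes), 1 point per array and coloured by group. In the first panel the 3 Lats2-CKO normal-diet arrays and the second Lats2-CKO high-cholesterol array lie together at the low end of both axes, at 3.59 to 3.89 for Ccn1.

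Markers of other liver cells also differed in level between the groups. Of 12 endothelial markers, 12 were lower in Lats2-CKO over both diets, with a median of -0.43, where 49.3% of all genes were lower. An unadjusted limma p below 0.05 was reached by 10 of them, against 5.97% of all genes, though 0 of the 12 markers passed over all genes. The mean of their centred values was 0.25 to 0.30 in wild type with normal diet, and 0.13 to 0.25 with high cholesterol. In Lats2-CKO it was -0.33 to -0.13 with normal diet and -0.44 to -0.07 with high cholesterol. All 6 wild-type arrays thus lay above all 6 Lats2-CKO arrays. The endothelial scavenger receptor Stab2 read 7.88, 7.49 and 7.84 in wild-type and 7.42, 6.91 and 7.01 in Lats2-CKO livers on normal diet.

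Of 11 macrophage and Kupffer cell markers, 11 were lower in Lats2-CKO over both diets (median -0.74, 8 with an unadjusted p below 0.05, 0 past the threshold over all genes). Of all genes, 49.3% were lower and 5.97% had such a p. With the diet 44.8% and 46.4% of all genes were higher in wild-type and Lats2-CKO livers. All 11 markers were higher in each genotype, with medians of 0.98 and 0.86. Their mean ran from -0.30 to 0.04 and from -0.96 to -0.72 on the wild-type and Lats2-CKO normal-diet arrays, and from 0.00 to 1.72 and from -0.31 to 0.29 on the high-cholesterol arrays. The third wild-type high-cholesterol array, low in Ccn1 and Ccn2, had the 0.00 and the other arrays of its group 0.96 and 1.72. The part of these cells in the values of Ccn1, Ccn2 and Axl was not tested, and in whole liver fewer cells of a type and less RNA per cell cannot be told apart.

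Other marker lists had medians closer to 0 between the genotypes. The 11 stellate cell and myofibroblast markers had a median of 0.06 on normal diet (6 of 11 higher) and -0.28 on the high-cholesterol diet (11 of 11 lower). Of all genes, 50% were higher on normal diet and 48% lower with high cholesterol. With high cholesterol 0 of these 11 markers had an unadjusted limma p below 0.05, against 2.93% of all genes. Their mean ran from -0.19 to 0.41 on the wild-type and from -0.26 to 0.0065 on the Lats2-CKO arrays of that diet, with overlap. The 6 measured cholangiocyte markers, of 9 listed, had medians of -0.08 and 0.12 on the 2 diets, the 6 neutrophil markers 0.020 and -0.0074, and the 10 hepatocyte markers 0.019 and 0.015. Of the measured cholangiocyte markers, Cftr, Krt7 and Cldn7 had means below the dim mark (2.92, 2.96 and 2.72), and Krt19, Epcam and Sox9 had means above it (3.48, 4.25 and 5.17). With the diet in Lats2-CKO livers, Epcam differed by 0.71 ± 0.25 and Sox9 by 0.60 ± 0.25 (limma adjusted p = 0.235 and 0.334). The other measured ones differed by 0.12 (Krt19), 0.030 (Cldn7), -0.0052 (Cftr) and -0.16 (Krt7). The list median was 0.08 with 4 of 6 higher, where 46.4% of all genes were higher. An unadjusted limma p below 0.05 was reached by 2 of 6, against 13.4% of all genes. Arrays have no true zero, so the means below the dim mark do not show absence.

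**Figure D5:**
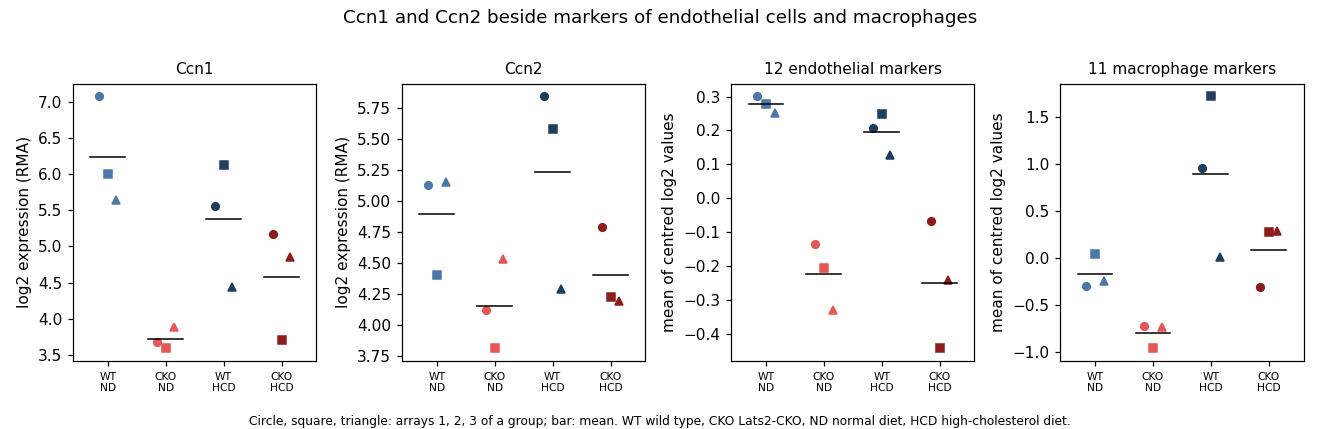
Ccn1 and Ccn2 (log2 expression) beside the mean centred log2 values of 12 endothelial and 11 macrophage markers, 1 point per array, with bars at group means. The endothelial mean is at 0.13 or above on the 6 wild-type arrays and at -0.07 or below on the 6 Lats2-CKO arrays.

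In the Hippo pathway itself, 18 of 20 listed genes were measured and 0 passed the threshold in any comparison. Their median genotype difference was 0.03 on normal diet and -0.02 with high cholesterol, with 10 and 8 of 18 higher in Lats2-CKO. The coactivator gene Yap1 differed by 0.27 ± 0.20 and 0.11 ± 0.20 between the genotypes on the 2 diets, and Wwtr1, which encodes TAZ, by -0.16 ± 0.22 and -0.11 ± 0.22. Both are controlled largely through phosphorylation of their proteins, which arrays do not measure. Besides Lats2, the smallest p for genotype on normal diet was that of Fat4, an atypical cadherin (-0.33 ± 0.09, limma adjusted p = 0.270). On the high-cholesterol diet it was that of Nf2, the gene of merlin (0.32 ± 0.18, limma adjusted p = 1.0). For diet they were Mob1b, a LATS cofactor (0.62 ± 0.18), and the scaffold gene Sav1 (0.49 ± 0.29) in wild-type livers, with limma adjusted p of 0.329 and 0.590. In Lats2-CKO livers they were Amot, of the family of Amotl1 and Amotl2 (0.48 ± 0.15), and Mob1b (0.53 ± 0.18), with limma adjusted p of 0.186 and 0.221. For the interaction they were Fat4 (0.23 ± 0.13) and the TEAD factor gene Tead4 (-0.24 ± 0.14).

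Of 13 further genes of published YAP/TAZ signatures, 12 were measured and 0 passed in any comparison. Their medians were -0.05 and -0.04 for genotype on the 2 diets, with 7 of 12 lower on each, and -0.0039 and 0.03 for diet in wild-type and Lats2-CKO livers. The smallest p for genotype were those of Asap1 (-0.43 ± 0.18) and Ccdc80 (-0.56 ± 0.37) on normal diet, and of Ccdc80 (-0.79 ± 0.37) and Myof (-0.81 ± 0.41) on the high-cholesterol diet. For diet they were those of Myof, a membrane repair protein (1.20 ± 0.41), and Nt5e, an ectonucleotidase (-0.97 ± 0.36), in wild-type livers, and of Nt5e (-0.86 ± 0.36) and Igfbp3 (0.48 ± 0.27) in Lats2-CKO livers. For the interaction they were those of Myof (-0.90 ± 0.58) and Rbms3 (0.20 ± 0.18). Their limma adjusted p ran from 0.326 to 1.0.

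Ccn1 is also an immediate-early gene, which serum and stress switch on within minutes to hours. The 16 immediate-early genes listed had a median genotype difference of -0.06 on normal diet (11 of 16 lower) and -0.33 on the high-cholesterol diet (15 of 16 lower), and 0 passed in any comparison. Of all genes, 50% and 48% were lower in Lats2-CKO on these diets. On normal diet Fos (-0.62 ± 0.23) and Junb (0.90 ± 0.38), both AP-1 subunits, had the smallest p and opposite signs. Fos had a mean of 2.998, below the dim mark, so its differences here and below say little about the gene. On normal diet it read 3.95, 3.47 and 2.87 in wild-type and 2.86, 2.85 and 2.73 in Lats2-CKO livers. The smallest p on the high-cholesterol diet were those of Nr4a1, a nuclear receptor (-1.20 ± 0.40), and Btg2 (-1.35 ± 0.80), with limma adjusted p of 1.0. Over both diets they were Nr4a1 (-0.90 ± 0.28) and Jun (-1.0 ± 0.39). With the diet they were Klf6 (1.10 ± 0.32) and Fos (-0.55 ± 0.23) in wild-type livers, and Btg2 (-2.03 ± 0.80) and Klf6 (0.81 ± 0.32) in Lats2-CKO livers. For the interaction they were Btg2 (-2.53 ± 1.13) and Myc (-2.04 ± 0.94), with limma adjusted p of 0.888 and 0.903. Myc read 7.60 on the second wild-type high-cholesterol array and 5.62 or less on all others. The mean of the list was -0.45 to 0.29 on the wild-type and -0.31 to 0.52 on the Lats2-CKO normal-diet arrays. On the high-cholesterol arrays it was -0.11, 0.86 and -0.06 in wild-type livers and -0.43 to -0.10 in Lats2-CKO livers. The genotype difference of the list on that diet thus leaned on the second wild-type array. The part of immediate-early induction in the values of Ccn1 was not tested.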

How the data were processed

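Per the submitters' processing notes, the authors used RMA and Partek 6.6, and the deposited values are log2 expression per probe set. The log2 scale was read from the values (1.94 to 14.2), and RMA settings, genome build and filters are not given in the sources used here. Of 41345 probe sets, 23521 had 1 gene symbol, 1814 several and 16010 none. Symbols were updated by identifier against RefSeq for 23328, and the brightest probe set stood for each of 1082 genes with several, which left 22180 genes. Limma 3.58.1 in R 4.3.3 (lmFit, eBayes) was fitted to all 12 arrays with 4 group means, with Benjamini-Hochberg adjustment across the 22180 genes. The fit was tested on simulated data. Intervals are for single genes and not adjusted. The number of arrays limits the precision.

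The members, lists and comparisons were chosen with earlier results of these data known, and the motif search was added after the design was written. Named besides the members were Lats2, Yap1, Wwtr1, genes of each list past the threshold or else those with the smallest p, and the 3 genes most correlated with Ccn1, Ccn2 and Axl among genes above the 30th percentile. Stab2, Alb and Ttr were picked as examples, and the cholangiocyte markers named, after their values were seen. Same-numbered arrays correlated at 0.0102 to 0.166 in their deviations from group means, all positive. Arrays of different numbers were not compared in this way, so these correlations do not settle whether the numbers pair the arrays. All arrays numbered 1 lay in the set of the higher medians, and all numbered 3 in the other. Alternatives were a fit on only the compared groups, a trended and robust prior, a block for the replicate number, array weights, dim genes left out, the mean of probe sets, quantile normalisation, median centring, the 2 array sets as a block (also without the third wild-type normal-diet array), and each array left out in turn.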

Additional observations from a re-analysis of the deposited data

How the results depend on the processing

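No member passed the threshold under any of the 22 alternatives. Of 1314 member values, 1272 kept their direction and 42 turned it. Changes are log2 as in the report, and the cause of the differences between settings was not tested. Counts of all genes past the threshold moved as follows. With only the compared groups they were 1 for genotype on normal diet and 265 for diet in Lats2-CKO. With a trended and robust prior they were 2 over both diets, 5 on normal diet, 98 for diet in Lats2-CKO and 2 for the interaction. With array weights they were 3 over both diets, 13 for diet in wild type and 274 for diet in Lats2-CKO. Without dim genes they were 104 for diet in Lats2-CKO and 3 for the interaction. With the array sets as a block they were 2 over both diets, 11 on normal diet, 33 for diet in Lats2-CKO and 2 for the interaction. With that block and without the third wild-type normal-diet array they were 2, 6, 374 (diet in wild type) and 573 (diet in Lats2-CKO). With each array left out in turn they ran from 1 to 8 over both diets, 3 to 17 on normal diet, 0 to 22 on the high-cholesterol diet, 0 to 516 for diet in wild type, 5 to 468 for diet in Lats2-CKO and 1 to 2 for the interaction. The replicate number as a block gave 58 genes for diet in Lats2-CKO and an adjusted p of 0.160 (limma) for Ccn1 on normal diet, and no member was called.

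With array weights the turned values were Amotl2 0.012, Crim1 0.031 and F3 0.026 for genotype over both diets, Axl 0.079 for genotype on the high-cholesterol diet and F3 -0.043 for diet in wild type. The mean of probe sets gave Ccn2 0.0075 for the interaction. The array set block gave Ajuba 0.0056 for diet in wild type, and without the third wild-type normal-diet array 0.020. That last setting gave Nuak2 -0.0022 over both diets, -0.019 on normal diet, -0.014 for diet in wild type and 0.035 for the interaction.

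With each array left out in turn, genotype over both diets ran from -0.16 to 0.036 for Amotl2 and from -0.31 to 0.048 for F3. On normal diet it ran from -0.092 to 0.015 for Ajuba and from -0.13 to 0.18 for Crim1, and on the high-cholesterol diet from -0.19 to 0.21 for Amotl2, -0.40 to 0.18 for Axl and -0.18 to 0.22 for Nuak2. Diet in wild type ran from -0.093 to 0.038 for Ajuba, -0.030 to 0.13 for Ankrd1, -0.017 to 0.35 for Crim1 and -0.18 to 0.54 for F3. Diet in Lats2-CKO ran from -0.15 to 0.24 for Amotl2, -0.27 to 0.0072 for Crim1 and -0.040 to 0.36 for Nuak2. The interaction ran from -0.12 to 0.010 for Ajuba, -0.048 to 0.35 for Amotl2, -0.018 to 0.48 for Ankrd1, -0.027 to 0.56 for Axl, -0.57 to 0.21 for Ccn2 and -0.37 to 0.022 for Nuak2.

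Each group had 3 arrays, which limits the precision. Ajuba lay below the mark of dim genes, Ankrd1 just above it and the unused probe set of Ccn2 below it.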
